A study of Mus musculus with 6 samples.

Results

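The interleukin-1 (IL-1) family genes were examined as 9 members, which make up 9 of the 55401 genes in the count table. They were taken by symbol: the ligand genes Il1a, Il1b, Il18 and Il33, the antagonist genes Il1rn and Il18bp, and the receptor genes Il1r1, Il1r2 and Il1rap. Each was matched to 1 Ensembl identifier and passed the filter on low counts. Expression was measured by RNA sequencing of CD11b-selected brain cells, prepared as microglia, from untreated MRL/lpr and MRL/mpj mice at 6 weeks of age, with 3 libraries per strain. The lpr mutation of the death receptor gene Fas is carried by MRL/lpr mice, which develop a lupus-like disease, and MRL/mpj mice are the control strain on the same MRL background. Female animals were obtained for the study, but the labels give neither the sex of the sequenced animals nor whether each library came from a separate mouse, so p-values measure the spread between these libraries, which may be technical. Brain tissue was digested with collagenase at 37°C and enriched on Percoll before magnetic selection for CD11b, which blood-derived myeloid cells also carry. The comparison asks how the microglial transcriptome differs between lupus-prone and control mice.

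IL-1α and IL-1β, the products of Il1a and Il1b, bind the signalling receptor IL-1R1, which then recruits the accessory protein IL-1RAcP encoded by Il1rap and activates NF-κB through MyD88. The pathway is held back by the receptor antagonist from Il1rn and by the decoy receptor IL-1R2, which binds ligand without signalling. The IL-18 binding protein from Il18bp holds back IL-18 instead. IL-1β and IL-18 are made as precursors that inflammasome caspases cleave, whereas IL-1α and IL-33 are active as full-length alarmins, and microglia are a main source of IL-1 in the brain.

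The 250 bases before the transcription start of the 3 members that differed between the strains are shown so that the sequence can be read beside their levels. They are RefSeq windows on GRCm38.p6, written 5′ to 3′ on the strand of the gene, and capitals mark a match to 1 of the 4 motifs searched. The Il1a window is chr2:129309973-129310222 on the minus strand, the Il1b window chr2:129371140-129371389 on the minus strand, and the Il1r2 window chr1:40085843-40086092 on the plus strand, which lies inside the longer GENCODE span of that gene.
Il1a: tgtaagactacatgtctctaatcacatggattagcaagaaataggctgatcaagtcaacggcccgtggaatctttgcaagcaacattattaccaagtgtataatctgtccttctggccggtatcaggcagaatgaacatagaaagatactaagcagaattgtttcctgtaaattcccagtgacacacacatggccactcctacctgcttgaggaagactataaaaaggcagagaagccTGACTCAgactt
Il1b: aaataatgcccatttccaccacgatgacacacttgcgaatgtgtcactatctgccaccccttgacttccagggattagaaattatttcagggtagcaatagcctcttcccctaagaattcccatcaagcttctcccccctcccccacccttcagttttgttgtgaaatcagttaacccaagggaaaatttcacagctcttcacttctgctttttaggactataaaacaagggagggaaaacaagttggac
Il1r2: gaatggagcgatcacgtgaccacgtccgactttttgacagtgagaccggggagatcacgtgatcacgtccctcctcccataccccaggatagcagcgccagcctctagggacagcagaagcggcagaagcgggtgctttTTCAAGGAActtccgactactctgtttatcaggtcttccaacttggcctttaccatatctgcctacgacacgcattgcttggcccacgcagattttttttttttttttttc

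The motifs were the AP-1 element TGANTCA, the STAT element TTCNNNGAA (GAS), the interferon-stimulated response element (ISRE) and the κB consensus, each searched on both strands. The AP-1 match TGACTCA of Il1a began 12 bases upstream of the start, and the GAS match TTCAAGGAA of Il1r2 began 111 bases upstream. The Il1b window held no match to these letters. Among all 32851 RefSeq promoter windows of the same length, 6.75% held the AP-1 letters, 7.02% the GAS letters, 2.98% the ISRE and 7.25% the κB consensus. All 9 members had a RefSeq promoter entry. The windows of the other 6 members held 2 matches, an AP-1 match 141 bases upstream of the first of 3 Il1rn starts and a κB match 232 bases upstream of the second of 2 Il1r1 starts. These matches describe the letters of the windows.

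Library totals lay between 45481609 and 49846634 counts, of which the 9 members took 0.0681% to 0.0909% in MRL/lpr and 0.0522% to 0.0544% in MRL/mpj. MRL/lpr replicate 3 stood apart, since the noncoding gene CT010467.1 took 6.38% of its counts and at most 0.458% in any other library. Counts of Fas were 461, 282 and 298 in MRL/lpr and 426, 432 and 362 in MRL/mpj, with a log2 fold change of -0.06 ± 0.21 (SE) and Benjamini-Hochberg adjusted p = 0.887 by the quasi-likelihood test of edgeR, so a count over the whole gene did not separate the strains. The 15 microglial markers, led by Csf1r, were all detected and summed to 27604 to 31163 CPM (counts scaled to the TMM-adjusted library size) in MRL/lpr and 31972 to 32909 in MRL/mpj. Neutrophil markers summed to 1521 to 1705 CPM in MRL/lpr and 1481 to 1516 in MRL/mpj, and endothelial markers to 2289 to 2677 against 2154 to 2217, so transcripts known from other cell types were present in both strains. The marker sums of other cells differed more, with choroid plexus at 358 to 374 CPM in MRL/lpr and 1067 to 1154 CPM in MRL/mpj (7 of 8 called lower) and neurons at 25.8 to 29.4 against 45.9 to 49.0 CPM (3 of 8 called lower), and their part in the members' values was not tested. In such bulk samples, fewer cells of a type and less RNA per cell cannot be told apart.

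Of the 9 members, 3 were higher in MRL/lpr and none was lower at an adjusted p under 0.05: Il1a, Il1b and Il1r2. Across all 19554 genes tested, 11.1% were called higher and 9.06% lower, 20.2% in either direction. The stricter call, which also asks for a log2 fold change of 1 or more in size, took 1 member, Il1r2, against 4.67% of all genes called higher and 8.34% in either direction. The median log2 fold change was 0.36 over the members and -0.01 over all genes. The CPM values of the strains did not overlap for 4 of the 9 members, each higher in MRL/lpr, and 39% of all genes had such groups, 19.6% with MRL/lpr higher. The members are few, and the shares describe them without a test of the list.

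Levels were compared between genes in the deposited FPKM, which is scaled to gene length and depth, since only a value per length allows this. Il1a was by far the most abundant member, with 344, 340 and 251 FPKM in MRL/lpr and 184, 187 and 180 FPKM in MRL/mpj. Its mean level was above that of 99.3% of the 18843 expressed genes. Il1b, the other IL-1 receptor agonist, was second. The means of Il1a and Il1b were 311 against 23.5 FPKM in MRL/lpr, a ratio of 13.2, and 184 against 16.2 FPKM in MRL/mpj, a ratio of 11.4.

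The order of mean levels below Il1a and Il1b was Il18, Il1r2, Il1r1, Il18bp, Il1rap, Il1rn and Il33 in MRL/lpr. In MRL/mpj, Il1r1 stood above Il1r2 and the order was otherwise the same. Il1r2 and Il1r1 were the only neighbours in either order whose 3 libraries overlapped, with 5.54 to 7.37 FPKM for Il1r2 and 4.87 to 5.99 FPKM for Il1r1 in MRL/lpr. At the low end, Il1rap had 0.87 to 1.2 FPKM over the 6 libraries, Il1rn 0.50 to 0.86 FPKM and Il33 0.12 to 0.43 FPKM. The deposited FPKM values used lengths close to the union of all exons, 11360 bases for Il1rap in GENCODE M21. With the longest coding transcript in place of that length, a choice made after the data were seen, the order kept all places except that Il1rap (2.75 CPM per kilobase) passed Il18bp (2.33) in MRL/mpj.

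**Figure D1:**
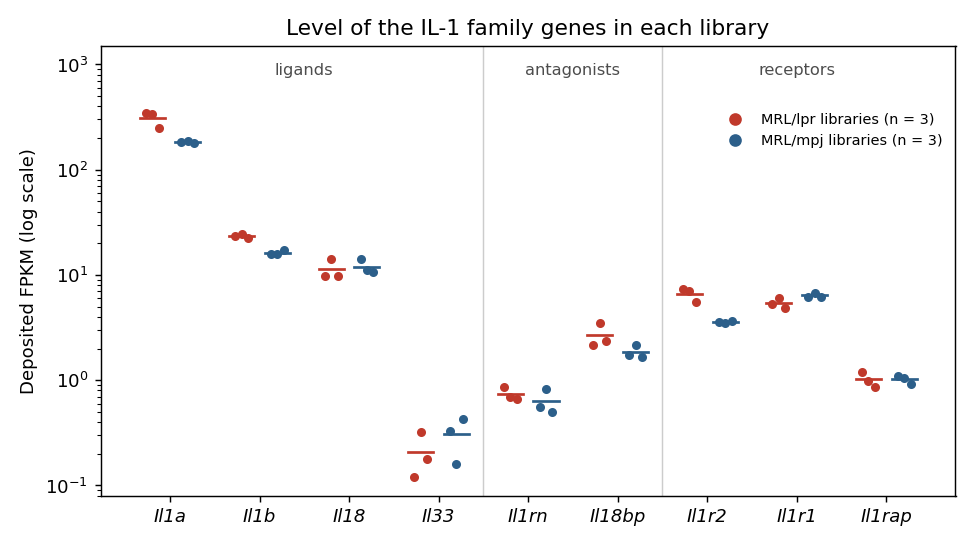
Deposited FPKM on a log axis for each of the 9 IL-1 family members, with 1 point per library and a horizontal line at the mean of the 3 libraries of a strain. Il1a stands at 251 to 344 FPKM in MRL/lpr and 180 to 187 FPKM in MRL/mpj, above all other members, and Il1r2 is the receptor whose strains are well apart.

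Il1a encodes IL-1α, which acts from the cell surface or on release. It had 36601, 36254 and 25066 counts in MRL/lpr and 20024, 19824 and 19859 in MRL/mpj, or 716 ± 101 against 389 ± 7.43 CPM (SD, n = 3 each). Every MRL/lpr library was above every MRL/mpj library, and MRL/lpr replicate 3 was the lowest of its strain. The rise was 1.84-fold (95% interval 1.58 to 2.14, log2 fold change 0.88 ± 0.10 SE), with Benjamini-Hochberg adjusted p = 0.000211 by the quasi-likelihood test of edgeR. The coefficient of variation of the FPKM was 16.9% in MRL/lpr and 1.94% in MRL/mpj, but the former rested on MRL/lpr replicate 3, the library with the high share of CT010467.1, and was 0.813% over the other 2 MRL/lpr libraries. Without that library the log2 fold change was 1.0.

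Il1b, the gene of the inflammasome-processed IL-1β, had 51.3, 54.1 and 52.1 CPM in MRL/lpr and 32.1, 32.3 and 35.1 CPM in MRL/mpj. The strains were apart and the 3 libraries of each lay close together. Il1b rose 1.58-fold (95% interval 1.39 to 1.80, log2 fold change 0.66 ± 0.08 SE), with adjusted p = 0.000421 in the same fit. Within each library, the FPKM ratio of Il1a to Il1b was 14.7, 13.8 and 11.1 in MRL/lpr and 11.7, 11.9 and 10.5 in MRL/mpj. These ratios overlapped, and their log2 difference of 0.21 had p = 0.3 in a 2-sided exact permutation test (adjusted p = 0.375 over 5 ratios).

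Il18 encodes the precursor of the interferon-γ-inducing cytokine IL-18. Its CPM values were 11.7, 16.9 and 12.3 in MRL/lpr and 15.7, 12.5 and 11.9 in MRL/mpj, and the strains overlapped over nearly their whole range. The log2 fold change was 0.03 (95% interval -0.37 to 0.43, adjusted p = 0.934 by edgeR), and its sign changed with the scaling between libraries and with the libraries included.

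Il33, the gene of a nuclear alarmin that glial cells make in the brain, was near the detection limit. Its counts were 19, 50 and 27 in MRL/lpr and 54, 25 and 71 in MRL/mpj, and the strains overlapped. The log2 fold change of -0.46 had a 95% interval of -1.70 to 0.77 (adjusted p = 0.631 by edgeR), so neither a fall to 0.308-fold nor a rise to 1.71-fold lay outside it. Astrocyte markers summed to 125 to 173 CPM in MRL/lpr and 204 to 213 CPM in MRL/mpj, with 1 of 10 called lower. The called marker, Slc1a3, was the most abundant, at 50.3, 92.3 and 55.7 CPM against 131, 132 and 127 CPM. The median log2 fold change of the 10 was 0.02, with 2 markers apart and higher in MRL/lpr and 3 apart and lower. Oligodendrocyte markers summed to 174 to 186 against 196 to 220 CPM, with 2 of 9 tested called lower. Of all genes, 9.06% were called lower. The oligodendrocyte marker Opalin had counts in 1 library only. The part of these cells in the Il33 value was not tested.

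**Figure D2:**
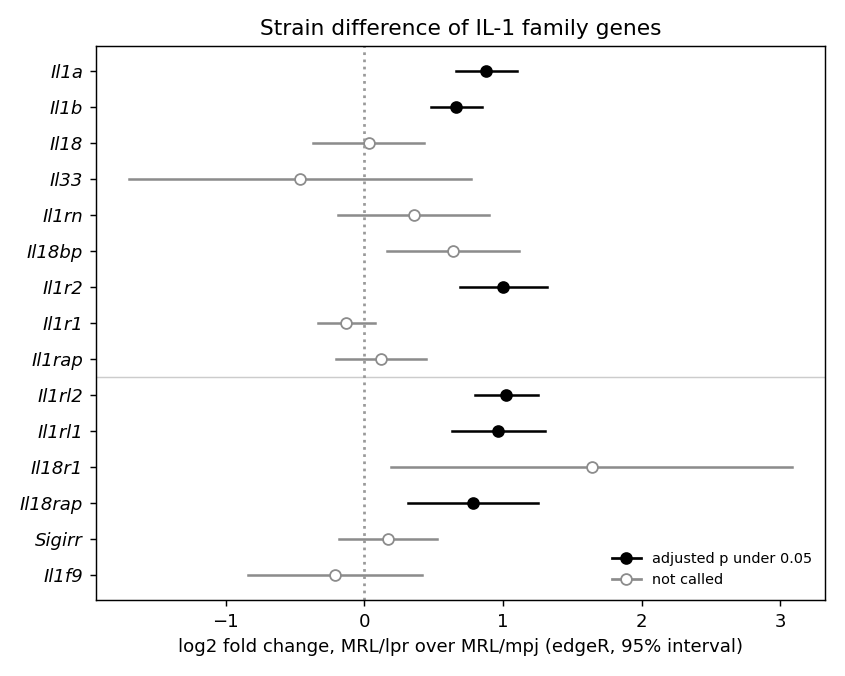
Log2 fold change of MRL/lpr over MRL/mpj with its 95% interval from edgeR for the 9 members (above the line) and the 6 other family genes that could be tested (below it), with filled points for adjusted p under 0.05. Il1a, Il1b and Il1r2 are the called members at 0.88, 0.66 and 1.0, and the intervals of Il1rn, Il18, Il1r1, Il1rap and Il33 include 0.

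The antagonist gene Il1rn had 5.49, 4.48 and 4.52 CPM in MRL/lpr and 3.37, 4.94 and 3.02 CPM in MRL/mpj. MRL/mpj replicate 2 lay among the MRL/lpr libraries, so the strains overlapped. The log2 fold change was 0.36 with a 95% interval of -0.19 to 0.90 (adjusted p = 0.363 by edgeR), which holds both no change and an increase as large as that of Il1a. The gene makes secreted and intracellular forms of the antagonist, and counts per gene do not separate them.

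Relative to the agonist it competes with, the FPKM ratio of Il1rn to Il1a was 0.00250, 0.00206 and 0.00267 in MRL/lpr and 0.00305, 0.00444 and 0.00278 in MRL/mpj. Each MRL/lpr ratio was below each MRL/mpj ratio, with a log2 difference of -0.48 and p = 0.1, the smallest value that a 2-sided exact permutation test of 3 against 3 can give (adjusted p = 0.167 over 5 ratios). The ratio of Il1rn to Il1b overlapped between the strains, with 0.0284 to 0.0367 in MRL/lpr and 0.0292 to 0.0527 in MRL/mpj, a log2 difference of -0.28 and exact permutation p = 0.5 (adjusted p = 0.5).

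Il18bp, whose product traps IL-18 in solution, had 7.47, 12.1 and 8.78 CPM in MRL/lpr and 5.70, 7.08 and 5.40 CPM in MRL/mpj. The strains were apart on this scale, with MRL/lpr replicate 2 the highest, but overlapped in the deposited FPKM, where the lowest MRL/lpr library had 2.14 and the highest MRL/mpj library 2.16. The log2 fold change was 0.64 ± 0.21 (SE) with a 95% interval of 0.16 to 1.12, and the adjusted p of 0.0645 by edgeR did not pass the threshold. The call was near the threshold, since DESeq2 (adjusted p = 0.0487) and the fit without MRL/lpr replicate 1 (adjusted p = 0.0416) called it higher, and without MRL/lpr replicate 2 the log2 fold change was 0.42 with adjusted p = 0.225. The FPKM ratio of Il18bp to Il18 was 0.217, 0.244 and 0.243 in MRL/lpr and 0.124, 0.192 and 0.154 in MRL/mpj. These ratios were 1.52-fold higher in MRL/lpr and did not overlap, with exact permutation p = 0.1 (adjusted p = 0.167).

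Il1r2, the decoy receptor gene, showed the largest rise among the 9 members. It had 16.2, 15.4 and 12.9 CPM in MRL/lpr and 7.43, 7.18 and 7.57 CPM in MRL/mpj, or 14.8 ± 1.72 against 7.40 ± 0.198 CPM (SD, n = 3 each). The strains were far apart compared with the spread within them, and MRL/lpr replicate 3 was again the lowest of its strain. The rise was 2.0-fold (95% interval 1.61 to 2.49, log2 fold change 1.0 ± 0.14 SE), with adjusted p = 0.000835 in the same edgeR fit. Its log2 fold change lay at the stricter threshold, and it was 0.73 to 1.10 over the 18 other settings that were run.

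Il1r1, the signalling receptor gene, had 39.1, 43.8 and 37.6 CPM in MRL/lpr and 42.7, 46.4 and 42.7 CPM in MRL/mpj. The strains overlapped through MRL/lpr replicate 2, although in the deposited FPKM all 3 MRL/lpr libraries (4.87 to 5.99) were below the MRL/mpj libraries (6.24 to 6.79). The log2 fold change was -0.13 with a 95% interval of -0.33 to 0.08 (adjusted p = 0.385 by edgeR), an interval that does not reach a 1.5-fold change in either direction. Brain endothelium is a known site of this receptor, and of its 10 markers 1 was called higher and 1 lower. The part of endothelial cells in the Il1r1 value was not tested.

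The accessory receptor gene Il1rap had 15.6, 12.8 and 12.04 CPM in MRL/lpr and 13.3, 12.7 and 11.3 CPM in MRL/mpj, with overlapping strains. Its log2 fold change was 0.12 with a 95% interval of -0.20 to 0.44 (adjusted p = 0.636 by edgeR), and its sign changed with the scaling between libraries. Membrane and soluble forms of the protein come from the same gene and are counted together.

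In MRL/lpr the mean of the decoy gene was higher and that of the signalling receptor gene lower, the latter without passing the test. Per length, the ratio of Il1r2 to Il1r1 was 1.38, 1.17 and 1.14 in MRL/lpr and 0.577, 0.513 and 0.590 in MRL/mpj. The decoy transcript was thus the more abundant of the pair in each MRL/lpr library and the less abundant in each MRL/mpj library. The ratio was 2.19-fold higher in MRL/lpr (log2 difference 1.13, exact permutation p = 0.1, adjusted p = 0.167 over 5 ratios), and a ratio within a library does not depend on the scaling between libraries.

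**Figure D3:**
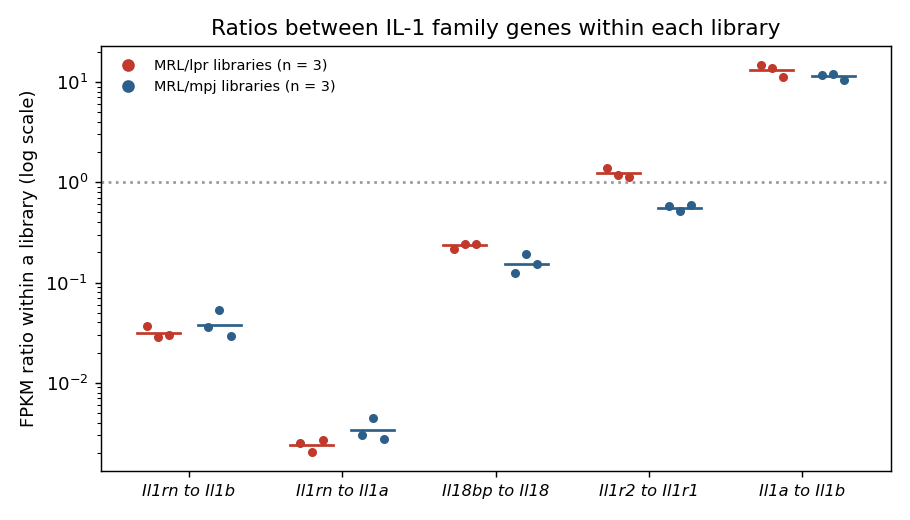
FPKM ratio on a log axis for 5 pairs of IL-1 family genes within each library, with 1 point per library, a line at the geometric mean of a strain and a dotted line at a ratio of 1. The ratio of Il1r2 to Il1r1 is above 1 in the 3 MRL/lpr libraries (1.14 to 1.38) and below 1 in the 3 MRL/mpj libraries (0.513 to 0.590).

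The rest of the family was followed with a list of 12 further genes, of which 6 could be tested. Of these, 3 were called higher and none lower, against 11.1% and 9.06% of all genes. The median log2 fold change of the 6 was 0.88, against -0.01 over all genes tested. Il1rl2, the receptor of the IL-36 cytokines, had 55.2, 59.8 and 50.2 CPM in MRL/lpr and 29.1, 25.0 and 27.1 CPM in MRL/mpj. These groups were apart, and the log2 fold change was 1.02 ± 0.10 (SE, adjusted p = 9.99e-05 by edgeR). Il1rl1, which encodes the IL-33 receptor ST2 in a membrane and a soluble form, had 13.2, 14.1 and 13.9 CPM in MRL/lpr and 6.28, 8.20 and 6.53 CPM in MRL/mpj, with a log2 fold change of 0.97 ± 0.15 (SE, adjusted p = 0.0016 by edgeR).

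Both subunits of the IL-18 receptor had higher means in MRL/lpr. Il18rap, the accessory subunit, had 5.08, 5.88 and 5.65 CPM against 2.88, 2.90 and 3.86 CPM, with a log2 fold change of 0.78 ± 0.21 (SE, adjusted p = 0.0265 by edgeR). That call was lost in 7 of 18 alternatives, among them the fits without MRL/lpr replicate 2 (adjusted p = 0.083) and without MRL/mpj replicate 1 (0.0963) or 2 (0.0969), scaling by library size only (0.0511), and limma on log2(FPKM + 0.1) (log2 fold change 0.57, adjusted p = 0.101) and on log2(FPKM + 1) (0.24, adjusted p = 0.0631). Il18r1, the binding subunit, had 33, 49 and 19 counts against 11, 8 and 17, and its log2 fold change of 1.64 did not pass the threshold (adjusted p = 0.111 by edgeR). T and NK cells, which carry the IL-18 receptor, had markers that summed to 23.1 to 28.8 CPM in MRL/lpr and 6.36 to 7.69 CPM in MRL/mpj, with 7 of 10 called higher. Of these markers, Cd3e had 103, 92 and 120 counts in MRL/lpr and 2, 0 and 9 in MRL/mpj, and Lck, the most abundant, had 282, 251 and 311 against 97, 97 and 96. The NK cell markers did not all follow. Klrb1c had 23, 0 and 0 counts in MRL/lpr and 75, 16 and 82 in MRL/mpj (log2 fold change -2.74, adjusted p = 0.232 by edgeR), and Ncr1 had 27, 25 and 0 against 7, 21 and 0. The part of these cells in the values of Il18rap, Il18r1 and Il1rl1 was not tested.

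Sigirr, an inhibitory receptor of the family, had a log2 fold change of 0.17 (adjusted p = 0.519), and Il1f9, the gene of IL-36γ, of -0.21 (adjusted p = 0.674 by edgeR). The other 6 listed genes had almost no counts. Il1f5, Il1f8, Il1f10, Il1rapl1 and Il1rapl2 had 0 counts in all 6 libraries, and Il1f6 had 4 counts in 1 MRL/mpj library. A count of 0 allows up to 3 counts in a library, or 12 if 1 read pair is worth 4 counts. The IL-36 receptor gene was thus measured at 25.0 to 59.8 CPM, while of the listed IL-36 ligand genes only Il1f9 passed the filter on low counts, at 1.88 to 3.11 CPM.

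The 6 receptor genes of this region lie next to one another on the plus strand of chromosome 1 over 477.6 kb of GRCm38. They are Il1r2 (chr1:40074079-40125231), Il1r1 (chr1:40225080-40317257), Il1rl2 (chr1:40324610-40367562), Il1rl1 (chr1:40429570-40465415), Il18r1 (chr1:40465552-40500854) and Il18rap (chr1:40515362-40551705). In this row, 4 of 6 genes were called higher in MRL/lpr, against 11.1% of all genes, and the call of Il18rap was the one lost in 7 of 18 alternatives. Il1r1, which sits between Il1r2 and Il1rl2, was the only gene of the row with a negative log2 fold change. The remaining members lie elsewhere, with Il1a (chr2:129299610-129309972) and Il1b (chr2:129364570-129371139) close together on the minus strand of chromosome 2 and both called higher, and Il1rn (chr2:24336853-24351494) far from them on the plus strand of the same chromosome. Il18 (chr9:50554827-50581840), Il18bp (chr7:102014885-102018690), Il1rap (chr16:26581704-26730117) and Il33 (chr19:29925114-29960718) are on 4 other chromosomes.

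**Figure D4:**
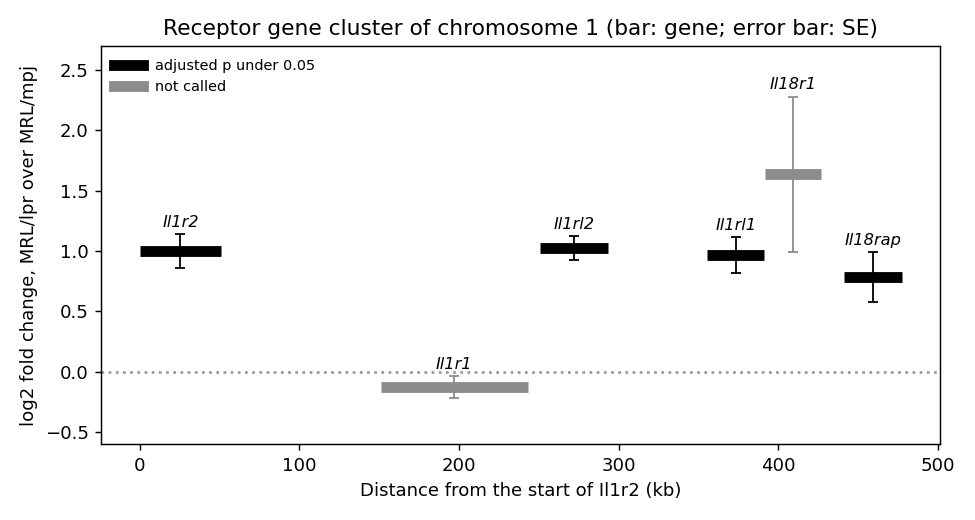
Log2 fold change of MRL/lpr over MRL/mpj against distance from the start of Il1r2 for the 6 receptor genes of the chromosome 1 row, with a bar over the span of each gene and error bars of 1 SE. Il1r2, Il1rl2, Il1rl1 and Il18rap (black) stand between 0.78 and 1.02, Il1r1 at -0.13 and Il18r1 at 1.64 (grey) were not called.

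Downstream of the receptor, 20 genes of MyD88-dependent signalling were tested, of which 2 were called higher and 1 lower, with a median log2 fold change of 0.05. Of all genes, 20.2% were called in either direction, so the count of 3 in 20 was no larger than the background. Traf6, the ubiquitin ligase that links the receptor complex to NF-κB, rose by a log2 fold change of 0.58 ± 0.09 (SE, adjusted p = 0.0012 by edgeR), with 3488, 3463 and 2681 counts against 2386, 2325 and 2547. Peli1, a ubiquitin ligase of the same complex, had a log2 fold change of 0.25 (adjusted p = 0.0472), a call that was lost in 13 of 18 alternatives, among them 5 of 6 fits without 1 library, DESeq2 (adjusted p = 0.058) and scaling by library size only (adjusted p = 0.36). Peli2 fell by 0.50 on the log2 scale (adjusted p = 0.00288 by edgeR). The adaptor Myd88 and the kinase genes Irak1 and Irak4 were not called.

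Among 18 tested genes of the inflammasome and of IL-1β release, 5 were called higher and 4 lower, against 11.1% and 9.06% of all genes. Those named by the smallest adjusted p were Casp4 (log2 fold change 1.04, adjusted p = 0.000376), Naip2 (0.48, adjusted p = 0.0019) and Aim2 (0.66, adjusted p = 0.00372) among the higher genes, all by edgeR. Casp4 is the noncanonical inflammasome caspase and Aim2 a sensor of cytosolic DNA. Nlrp3, the main sensor upstream of IL-1β cleavage, was also higher (log2 fold change 1.2, adjusted p = 0.00467) and is named here after its values were seen.

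Of the lower genes, Pycard, the gene of the adaptor ASC that joins sensors to caspase-1, fell from 3617, 3434 and 3489 counts in MRL/mpj to 1189, 977 and 992 in MRL/lpr. No libraries overlapped, and Pycard fell by 1.56 on the log2 scale (adjusted p = 5.57e-06 by edgeR). Nlrp1a had 1680, 1505 and 1578 counts in MRL/mpj and 0, 0 and 21 in MRL/lpr. P2rx7, the gene with the highest mean CPM of the list, had 125 ± 8.53 CPM in MRL/lpr and 222 ± 53.3 CPM in MRL/mpj (SD). Its libraries did not overlap, and it fell by 0.83 on the log2 scale (adjusted p = 0.0131 by edgeR). P2rx7 is named here after its values were seen. Naip6 fell by 0.35 (adjusted p = 0.0123), a call lost without MRL/mpj replicate 3 (adjusted p = 0.0569). Naip2 and Naip6, like Nlrp1a and Nlrp1b, are closely related genes. Of these, Nlrp1b was called higher, with 1101, 1052 and 971 counts in MRL/lpr and 740, 640 and 422 in MRL/mpj. Its log2 fold change was 0.97 (adjusted p = 0.00616 by edgeR). How the counting treated reads that match more than 1 copy is not given in the sources used here, so the values of these related genes are uncertain. The list thus moved in both directions, and Casp1 itself was not called (log2 fold change 0.58, adjusted p = 0.0574 by edgeR).

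Genes that IL-1 and NF-κB are known to induce were mostly higher in MRL/lpr. Of 26 tested, 19 were called higher and none lower, with a median log2 fold change of 0.86 and against 11.1% of all genes called higher. The smallest adjusted p values were those of Zc3h12a, which encodes the RNase Regnase-1 (log2 fold change 1.65, adjusted p = 4.66e-07), Tnf (1.30, adjusted p = 1.1e-06) and Nfkbiz, the gene of IκBζ (1.73, adjusted p = 1.14e-06 by edgeR). Nfkbiz had 114193, 113251 and 84204 counts in MRL/lpr and 35118, 34934 and 35776 in MRL/mpj. The list is not specific to IL-1, since Toll-like receptors and TNF induce the same genes. It was also chosen with earlier results of these data known, so the share describes the list and is no test of it.

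Early response genes that tissue digestion is known to induce moved in the same direction as Il1a, Il1b and these targets. Of 17 such genes, a list also chosen with earlier results known, 16 were called higher, all except Rgs1, against 11.1% of all genes. The median log2 fold change of the 17 was 0.88. They summed to 54926 to 62476 CPM in MRL/lpr and 31915 to 33275 CPM in MRL/mpj, a ratio of 1.84, with the lowest MRL/lpr sum in replicate 3. The 9 members summed to 741 to 931 CPM and 500.0 to 520 CPM, also with MRL/lpr replicate 3 lowest in its strain, and Il1a made up most of that sum. MRL/lpr replicate 3 was the lowest of its strain for the signalling and inflammasome sums too. The part of the early response in the values of Il1a, Il1b and Il1r2 was not tested. Neutrophils and monocytes also make IL-1β and carry IL-1R2. Of 13 neutrophil markers, 4 were called higher and none lower, with Csf3r the most abundant and none at 0, and their median log2 fold change was 0.34. The ratio of the sums was 1.06, of which Csf3r, lower in mean in MRL/lpr, made up a large part, and without Csf3r the other 12 summed to 764 to 898 CPM in MRL/lpr and 608 to 674 CPM in MRL/mpj, a ratio of 1.27. Of 10 monocyte markers, led by Fn1, 4 were called higher and 1 lower, against the same shares of all genes. Their sums, 615 to 706 CPM in MRL/lpr and 602 to 624 CPM in MRL/mpj, had a ratio of 1.06. Fn1 made up most of these sums, at 504 to 576 CPM against 481 to 514 CPM. The median log2 fold change of the 10 was 0.56, from -1.59 for Chil3 to 2.22 for Plac8. The part of both cell types in the values of the members was not tested.

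**Figure D5:**
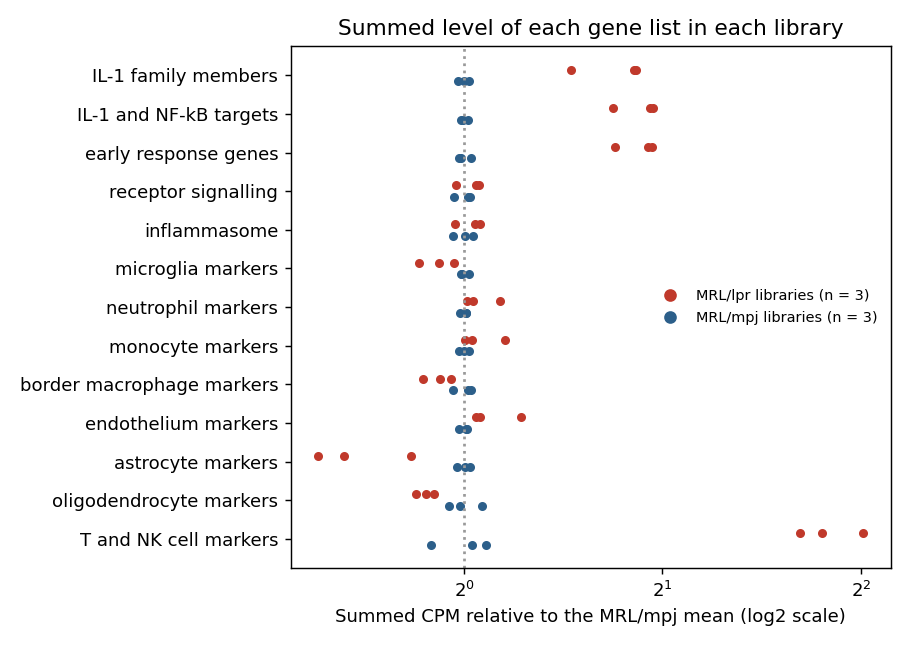
Summed CPM of 13 gene lists in each library, divided by the mean of the 3 MRL/mpj libraries, on a log2 axis with 1 point per library. The IL-1 family members, the IL-1 and NF-κB targets and the early response genes are apart between the strains, with MRL/lpr higher. So are the neutrophil, endothelium and T and NK cell markers. The microglia, border macrophage, astrocyte and oligodendrocyte markers are apart with MRL/lpr lower, while the signalling, inflammasome and monocyte sums overlap. MRL/lpr replicate 3 is the lowest MRL/lpr point of the member, target, early response, signalling, inflammasome and border macrophage lists.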

How the data were processed

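The deposited files hold 1 count table of all 6 libraries and 1 FPKM table per library. Per the labels, ribosomal RNA was removed and stranded total RNA libraries were made, whereas the study's methods describe mRNA purification, with 150-base read pairs. The gene counts deposited by the authors are whole numbers that were not normalized. The FPKM deposited by the authors are scaled by gene length and depth. The submitters' processing notes name cutadapt 1.9.3, HISAT2 2.0.4, Cuffdiff 2.2.1, Cufflinks and GRCm38. The counting tool and annotation are not given in the sources used here. A count of 4 was much commoner than 3 or 5 (1234 against 377 and 254 in MRL/lpr replicate 1), so 1 read pair may be worth 4 counts. GENCODE M21 on GRCm38 gave symbols and coordinates for 55141 of 55401 identifiers.

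All 6 libraries were fitted in edgeR 4.0.16 (R 4.3.3) without covariates, with filterByExpr (minimum count 10, minimum total 15), TMM scaling, robust dispersions (common biological coefficient of variation 0.26), the quasi-likelihood test and Benjamini-Hochberg adjustment over 19554 genes. CPM values use TMM-scaled library sizes. The stricter call takes its fold change and adjusted p thresholds from the study's methods, which used DESeq2, and applies them to the edgeR fit. Ratios of FPKM were compared with exact permutation tests in SciPy 1.17.1, which cannot go below p = 0.1 here. The members and gene lists were chosen with earlier results of these data known. All members and the other family genes are named, and from the signalling, inflammasome and target lists up to 3 genes per direction with the smallest adjusted p. Others are named after their values were seen, except the most abundant marker of a list. Alternatives were DESeq2 1.42.0, limma-voom and limma 3.58.1 on log2(FPKM + 0.1) and log2(FPKM + 1), other scalings and filters, dispersions that are not robust, counts divided by 4, omission of each library and a replicate block. The variation of Il1a without MRL/lpr replicate 3 and the neutrophil sum without Csf3r were added after the data were seen.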

Additional observations from a re-analysis of the deposited data

How the results depend on the processing

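Of the members, 3 to 4 were called over 16 alternatives, always with Il1a, Il1b and Il1r2 among them. Over 18 alternatives, those 3 genes kept their direction and call, with log2 fold changes of 0.75 to 1.0, 0.52 to 0.70 and 0.73 to 1.10. The fourth call was Il18bp, with DESeq2, with a minimum of 1 CPM in 3 libraries, with counts divided by 4 and without MRL/lpr replicate 1. Fits without 1 library gave 3 to 4 member calls, 2 to 5 signalling calls (5 without MRL/lpr replicate 3) and 2803 to 4334 calls over all genes. Over the 16 alternatives, 2 to 3 other family genes, 8 to 11 inflammasome genes and 17 to 19 target genes were called. Il18 was between -0.15 and 0.16 without 1 library, and turned negative with scaling by library size only (-0.0891), without MRL/lpr replicate 2 (-0.15), without MRL/mpj replicate 2 (-0.02) or 3 (-0.05), and in limma on log2(FPKM + 0.1) (-0.10) and log2(FPKM + 1) (-0.0919). Il1rap turned negative with scaling by library size only (-0.00063) and in limma on log2(FPKM + 0.1) (-0.0077) and log2(FPKM + 1) (-0.0024). TMM factors were 0.920 to 0.978 in MRL/lpr and 1.041 to 1.046 in MRL/mpj, and neither scaling by library size only nor the FPKM fits use them. The cause of the sign changes was not tested. Scaling by library size only moved the median log2 fold change of all genes to -0.13 and called 1634 genes higher and 2790 lower, against 2178 and 1772 with TMM, and still called 3 members higher. The replicate numbers did not pair the libraries (correlations of deviations -0.0543, -0.0312 and -0.0633), and a block on the replicate number called the same 3 members and 3063 genes in all, with Il18rap (adjusted p = 0.055) and Peli1 (adjusted p = 0.109) no longer called. The 9 ligand, antagonist and receptor genes were counted per gene, so isoforms and proteins were not measured, and Il33 at 19 to 71 counts per library allows only large differences to be seen.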
